A study of Mus musculus with 8 samples.

Results

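Malat1, Neat1, Gas5, Snhg1, Snhg12 and Tug1 are 6 long noncoding RNA genes of the mouse, taken by gene symbol from the 55335 genes in the deposited files. They carry 69 of the 142351 annotated transcripts. By the sources used here, the RNA came from CD8 T cells sorted from B16 melanoma tumours. The tumours had grown for 14 days after intravenous injection of the tumour cells. The CD36_KO group came from CD36 KO mice and the WT group from C57BL/6 mice, both labelled with a C57BL/6 background and both tumour-bearing. Allele, sex, age and number of animals were not given in the sources used here. Each group was 1 library sequenced in 4 lanes, so no test of the genotype was possible and lane values measure only sequencing and estimation error.

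Malat1 and Neat1 are neighbouring genes whose RNAs stay in the nucleus. Malat1 RNA gathers in nuclear speckles, bodies rich in splicing factors, and the long form of Neat1 is the scaffold of paraspeckles, bodies that hold RNA-binding proteins and edited or stress-related RNAs. Malat1 RNA and the long form of Neat1 end without an ordinary poly(A) tail. RNase P cuts them behind an A-rich tract, and that tract folds into a triple helix with upstream U-rich runs. Gas5, Snhg1 and Snhg12 are host genes of small nucleolar RNAs (snoRNAs), which are released from their introns. Box C/D snoRNAs guide 2′-O-methylation and box H/ACA snoRNAs guide pseudouridylation, mostly of ribosomal RNA. The spliced host RNAs encode little or no protein and are commonly removed by nonsense-mediated decay, the pathway that degrades RNAs with early stop codons. Tug1 is a conserved RNA found in nucleus and cytoplasm, and its loss in mice impairs male fertility. The files measured whole-cell RNA, so nuclear location was not observed.

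The sequences of the 3′ element of Malat1 and Neat1 are shown because this element is common to the pair. They were read from GENCODE M21 transcripts on build GRCm38, both on the minus strand, at chr19:5795982-5796070 for Malat1 and chr19:5824708-5824802 for Neat1. Capitals mark 3 motifs searched as written, TTTCTTTTC, TTTGCTTTT and AAAGCAAAA.
Malat1-201: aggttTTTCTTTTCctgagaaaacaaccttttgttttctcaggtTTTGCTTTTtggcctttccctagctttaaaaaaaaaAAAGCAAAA
Neat1-201: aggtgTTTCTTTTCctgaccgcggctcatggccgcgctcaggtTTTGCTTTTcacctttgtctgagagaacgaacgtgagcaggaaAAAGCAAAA
Among 141767 annotated transcripts, only these 2, or 0.00141%, held the 3 motifs in this order within 130 bases on the transcript strand. The search was for exact letters that both RNAs hold, so these 2 hits were set in advance. Like elements with other letters would be missed, and the search does not show that the element is unique to the pair. The annotated Neat1-201 ended at the last motif, while Malat1-201 ran 292 bases further.

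The first 50 bases of the host genes are shown because Gas5 is known to begin with a pyrimidine run, the mark of RNAs whose translation follows growth signals. They were read from RefSeq on GRCm38.p6, plus strand, at chr1:161035166-161035215 for Gas5, chr19:8723487-8723536 for Snhg1 and chr4:132308678-132308727 for Snhg12, with the leading run of C and T in capitals.
Gas5: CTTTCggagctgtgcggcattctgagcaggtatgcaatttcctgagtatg
Snhg1: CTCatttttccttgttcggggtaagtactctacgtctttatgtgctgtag
Snhg12: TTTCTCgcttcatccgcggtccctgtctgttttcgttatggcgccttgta
The runs were 5, 3 and 6 bases. At least 3 leading pyrimidines were present at 10.7% of the 32851 start sites in the RefSeq table, and at least 5 at 4.44%. Of 20 coding host genes found in that table, with 1 start site each, 3 (15%) began with at least 3. All these runs are read from the exact first base of the listed start, and a shifted start would change them. That base was not checked here, so 15% does not measure how many coding hosts begin with a run. A second Gas5 start at position 161034601 had none and matched no GENCODE transcript start within 5 bases. Within 5 bases of the starts shown began 9 of 25 Gas5, 2 of 18 Snhg1 and 5 of 10 Snhg12 transcripts. Malat1 began with 1 pyrimidine and Tug1 with none.

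The snoRNAs of the host genes with at least 10 counts are shown because their counts parted from those of their hosts. All were read from GENCODE M21 on GRCm38, plus strand. Snord22 lies at chr19:8725866-8725991 within Snhg1, Snora44 at chr4:132309941-132310069 and Snora61 at chr4:132310240-132310369, both within Snhg12. Capitals mark the last CTGA, the box D letters, in Snord22, and the 3 bases that end just before the last 3 in the other two, where H/ACA RNAs carry their ACA box.
Snord22: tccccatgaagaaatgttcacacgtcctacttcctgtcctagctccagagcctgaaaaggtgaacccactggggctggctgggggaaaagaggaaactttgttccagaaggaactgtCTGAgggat
Snora44: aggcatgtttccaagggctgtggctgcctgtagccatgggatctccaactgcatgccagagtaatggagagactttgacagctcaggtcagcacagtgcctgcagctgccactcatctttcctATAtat
Snora61: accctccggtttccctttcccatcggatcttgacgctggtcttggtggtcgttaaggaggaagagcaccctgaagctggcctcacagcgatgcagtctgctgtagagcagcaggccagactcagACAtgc
Snora61 held the letters ACA at that place and Snora44 held ATA.

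The CD36_KO library held 10363391 estimated counts and the WT library 10071960, in lanes of 2569962 to 2611740 and 2497048 to 2538468. Cd36 itself, the targeted gene, had 358 counts in CD36_KO against 1194 in WT. Values below are counts per 1000000 library counts (CPM), scaled between the libraries by the trimmed mean of M values (TMM), and the ratios are CD36_KO over WT. A gene was measured at a mean of at least 5 CPM and called when its ratio reached 2-fold and its exact 95% Clopper-Pearson interval excluded no change. These intervals cover counting error only, and without molecular identifiers copies of 1 molecule count more than once. Of 12177 measured genes, 6.5% were called higher and 10.8% lower in CD36_KO, with a median log2 ratio of -0.13. The effective lengths in the files implied mean fragments of 194.0 to 194.6 bases in CD36_KO lanes and 159.8 to 161.1 bases in WT lanes. Median log2 ratios ran from -0.37 in the tenth of genes with the shortest effective length to -0.00 in the longest.

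The sorted cells were checked against markers. All 12 CD8 T cell markers were called higher in CD36_KO, with summed levels of 1088 to 1130 CPM per lane against 329 to 339 CPM in WT. All 12 melanoma markers were called lower, at 1369 to 1416 CPM against 5639 to 5870 CPM. Macrophage markers summed to 5286 to 5330 CPM against 8228 to 8339 CPM, with 4 of 12 called lower, and fibroblast markers to 354 to 370 CPM against 1298 to 1349 CPM. Of 9 measured fibroblast markers 7 were called lower and 1, Postn, higher at a log2 ratio of 2.02. B cell markers (7 of 8 called higher, 239 to 253 CPM against 72.3 to 80.4 CPM) and hepatocyte markers (9 of 10 called higher, 1159 to 1187 CPM against 432 to 472 CPM) ran the other way. No marker of any list was at 0 in either library. Within each library, macrophage markers summed highest, and CD8 T cell markers summed lower than melanoma markers. The lists differ in their genes, so the sums do not measure cell shares. The 6 genes were therefore measured in a mixture and not in CD8 T cells alone. The part of this mixture in the results on the 6 genes was not tested. In such bulk RNA, fewer cells of a type and less RNA per cell cannot be told apart.

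All 6 genes were measured, and none was called in either direction, beside the 6.5% and 10.8% of all genes. Neat1 stood 1.52-fold higher in CD36_KO, with lanes that did not overlap. The log2 ratios of the other 5 lay between -0.16 and 0.07. Lanes of Malat1 did not overlap either, at a ratio of 0.98-fold. The share of all genes or transcripts with such lanes was not computed, so lack of overlap does not set a gene apart. The median of the 6 was 0.00, against -0.13 over all measured genes and 0.32 over the 427 measured noncoding genes, of which 63 were called higher and 27 lower.

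**Figure D1:**
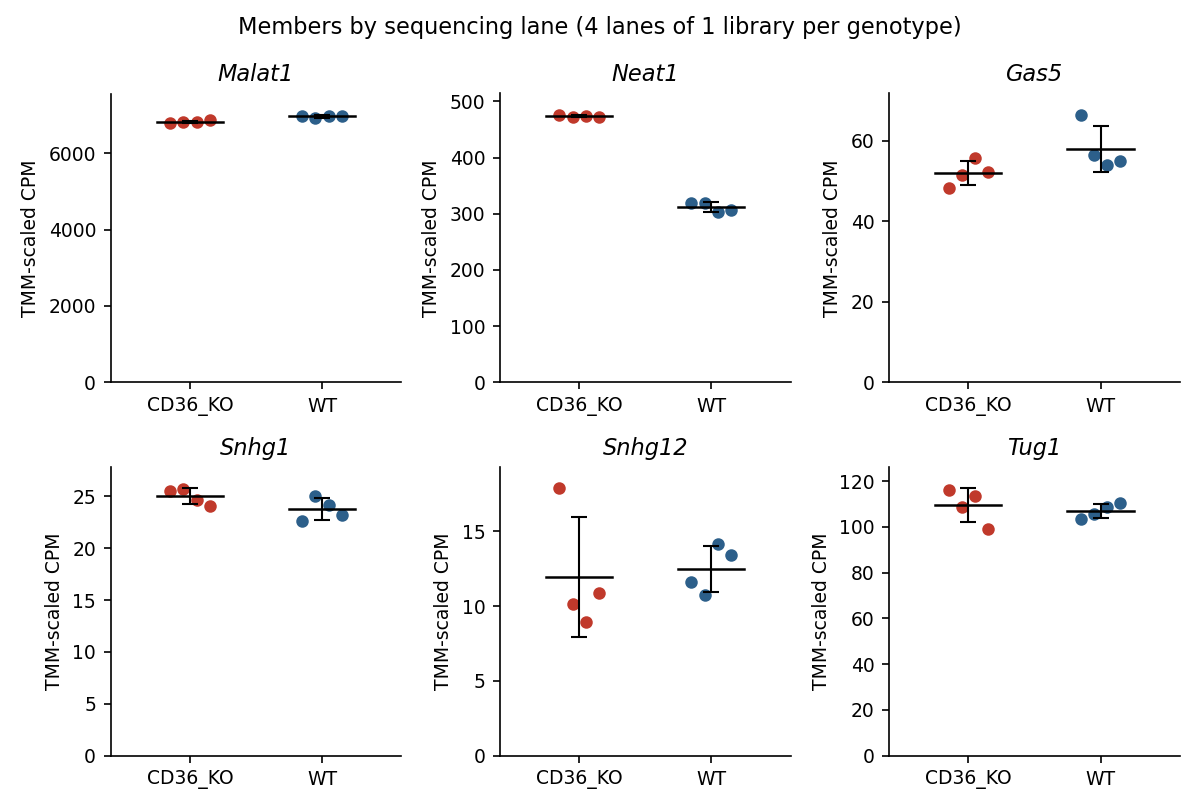
TMM-scaled CPM (y axes from 0) of the 6 genes in each sequencing lane, CD36_KO left and WT right, with the mean and SD of 4 lanes of 1 library. The Neat1 lanes lie at 472 to 476 CPM in CD36_KO and at 303 to 320 CPM in WT, while the lanes of Gas5, Snhg1, Snhg12 and Tug1 overlap.

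Malat1 (ENSMUSG00000092341.3, GRCm38 chr19:5795690-5802672, minus strand, lincRNA) was the most abundant of the 6. The CD36_KO lanes held 19002, 18744, 19032 and 18911 counts, against 16559, 16125, 16538 and 16334 in the WT lanes. Scaled by TMM, this was 6821 ± 34 CPM in CD36_KO and 6969 ± 36 CPM in WT (SD over 4 lanes). By CPM it took rank 9 in CD36_KO and rank 12 in WT of all 55335 genes. The scaled lanes did not overlap, yet the ratio was 0.98-fold, a log2 ratio of -0.03 (-0.05 to -0.02). This direction hung on the scaling: by total counts the log2 ratio was 0.17, and without any 1 WT lane it was 0.03. Per transcript length, Malat1 stood at 943 ± 20 TPM, a length-scaled level that sums to 1000000 per lane, in CD36_KO and 554 ± 24 TPM in WT. That difference of 0.77 in log2(TPM + 1) stands beside a median of 0.37 over all measured genes on the same scale, and 77.9% of genes had a lower TPM ratio.

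Neat1 (ENSMUSG00000092274.3, chr19:5824708-5845478, minus strand, lincRNA) had 1331, 1301, 1324 and 1300 counts in the CD36_KO lanes, against 755, 745, 717 and 716 in the WT lanes. All 4 CD36_KO lanes were above all 4 WT lanes. The level was 474 ± 1.7 CPM in CD36_KO and 312 ± 8.3 CPM in WT, a log2 ratio of 0.60 (0.54 to 0.67). Set against the median over all measured genes, its log2 ratio was 0.74, and 87.0% of genes had a lower ratio. In TPM the levels were 52.5 ± 1.2 in CD36_KO and 23.5 ± 1.3 in WT. This was a log2(TPM + 1) ratio of 1.12, past 2-fold, as it was for 12.3% of measured genes, and 0.76 above the median of all genes on that scale. Neat1 was the only one of the 6 genes past 2-fold in TPM.

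Count ratios between 2 genes of the same library are free of any factor applied to the whole library, such as TMM, though not of length scaling. There were 14.4 Malat1 counts per Neat1 count in CD36_KO and 22.3 in WT, and in TPM the ratios were 17.96 and 23.52. Of the 15 pairs among the 6 genes, 5 had an exact conditional interval of the CD36_KO to WT difference that excluded 0. All 5 were pairs with Neat1, so they share 1 ratio and are not separate results. The share over all gene pairs was not computed. For single genes of at least 10 counts, the interval lay below 0 for 27.2% and above 0 for 21.5%. Relative to Gas5, Neat1 was higher by 0.76 on the log2 scale (0.57 to 0.94), and relative to Snhg1 by 0.53 (0.26 to 0.80). Between Malat1 and Tug1 the difference was -0.06 (-0.19 to 0.06). The intervals of pairs with Snhg12 were the widest, such as -0.32 to 0.60 for Snhg1 over Snhg12.

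**Figure D2:**
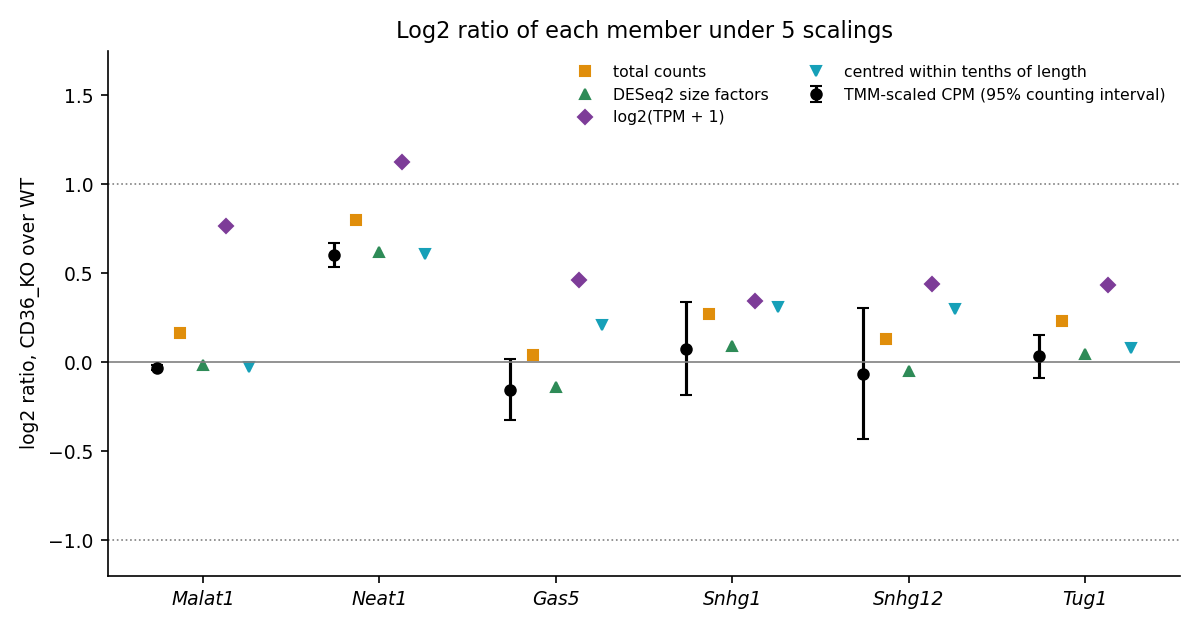
Log2 ratio of CD36_KO over WT (y axis) of each gene under 5 scalings, with the 95% counting interval on the TMM value and dotted lines at 2-fold. Neat1 lies highest under each scaling, at 0.60 by TMM and 1.12 in log2(TPM + 1), and Malat1, Gas5 and Snhg12 lie below 0 by TMM and above 0 by total counts.

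Gas5 (ENSMUSG00000053332.13, chr1:161034422-161038539, plus strand) was first found as a transcript of growth-arrested cells and hosts box C/D snoRNAs. The CD36_KO lanes held 135, 142, 156 and 144 counts, against 157, 131, 128 and 128 in the WT lanes. Scaled levels overlapped, at 52.0 ± 3.1 CPM in CD36_KO and 57.9 ± 5.7 CPM in WT, with the first WT lane the highest of all at 66.4 CPM. The log2 ratio was -0.16 (-0.33 to 0.02), and its sign turned to 0.04 when scaled by total counts. Per length, Gas5 stood at 58.4 ± 10.5 TPM in CD36_KO and 42.2 ± 2.3 TPM in WT, next to Malat1 in order. Its lanes spanned those of Neat1 in CD36_KO and all lay above those of Neat1 in WT. Gas5 overlaps the opposite-strand gene Zbtb37 by 428 bases, and whether the libraries kept strand was not given in the sources used here. Zbtb37 had a log2 ratio of 0.36 (0.19 to 0.53).

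Snhg1 (ENSMUSG00000108414.1, chr19:8723475-8726443, plus strand) had 71, 71, 69 and 66 counts in the CD36_KO lanes and 54, 58, 57 and 54 in the WT lanes. Its level of 24.96 CPM in CD36_KO (SD over lanes 0.76) and 23.71 CPM in WT (SD 1.07) gave a log2 ratio of 0.07 (-0.19 to 0.34), and the lanes overlapped. Slc3a2, the heavy chain of large neutral amino acid transporters, starts 105 bases away on the other strand and was lower in CD36_KO, at 650 counts against 1032 and a log2 ratio of -0.91 (-1.05 to -0.76). The interval of Snhg1 and that of this head-to-head neighbour did not overlap.

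Snhg12 (ENSMUSG00000086290.9, chr4:132308623-132311024, plus strand) was the least abundant of the 6. The CD36_KO lanes held 50, 28, 25 and 30 counts, against 28, 25, 33 and 31 in the WT lanes. The first CD36_KO lane was the highest and the other CD36_KO lanes lay within or below the WT range. The log2 ratio was -0.07 (-0.43 to 0.30) by TMM and 0.13 by total counts, so a difference of any size inside that interval was not detectable at this depth. Without the first CD36_KO lane it was the lowest of the values with 1 lane left out, at -0.32.

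Tug1 (ENSMUSG00000056579.18, chr11:3639785-3649673, minus strand, annotated as antisense) had 325, 300, 317 and 273 counts in the CD36_KO lanes and 245, 246, 258 and 258 in the WT lanes. The scaled lanes overlapped at 109 ± 7.4 CPM in CD36_KO and 107 ± 3.2 CPM in WT, and the log2 ratio was 0.03 (-0.09 to 0.15). Tug1 overlaps Morc2a, a chromatin-silencing ATPase gene on the other strand, by 483 bases. Morc2a had a log2 ratio of -0.38 (-0.58 to -0.18), and its interval did not meet that of Tug1.

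Transcript estimates divide reads between overlapping forms, so they are given with their lane ranges. Malat1 was mostly the unspliced Malat1-201 of 6983 bases, at 645 to 663 TPM in CD36_KO lanes and 452 to 474 TPM in WT lanes. The spliced Malat1-202 of 556 bases, with 2 exons that both lie inside Malat1-201, was listed at 422, 431, 409 and 461 counts in CD36_KO lanes, against 159, 160, 133 and 224 in WT lanes. Its lanes did not overlap between the libraries, and its share of Malat1 TPM was 30.3% (29.1% to 31.6%) in CD36_KO and 15.2% (12.2% to 19.3%) in WT. Its share of Malat1 estimated counts was far smaller, at 2.28% in CD36_KO and 1.03% in WT. The log2 ratio of TMM-scaled counts was 1.11 for Malat1-202 and -0.05 for Malat1-201. Mean fragment length differed between the libraries, as given above, and its part in this share was not tested.

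Both main forms of Neat1 were higher in CD36_KO. The long Neat1-201 of 20771 bases, the form that builds paraspeckles, stood at 10.1, 9.30, 10.1 and 9.95 TPM in CD36_KO lanes, against 4.22, 4.59, 4.47 and 4.16 TPM in WT lanes. Neat1-202 of 3004 bases, a 2-exon form from the 5′ end of the gene, stood at 38.5, 41.6, 39.5 and 38.1 TPM, against 19.3, 19.7, 17.3 and 20.4 TPM. No lanes of the libraries overlapped for either form. The ratio of the short to the long form was 4.01 ± 0.31 in CD36_KO and 4.41 ± 0.44 in WT (SD over 4 lanes), and these ratios overlapped.

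**Figure D3:**
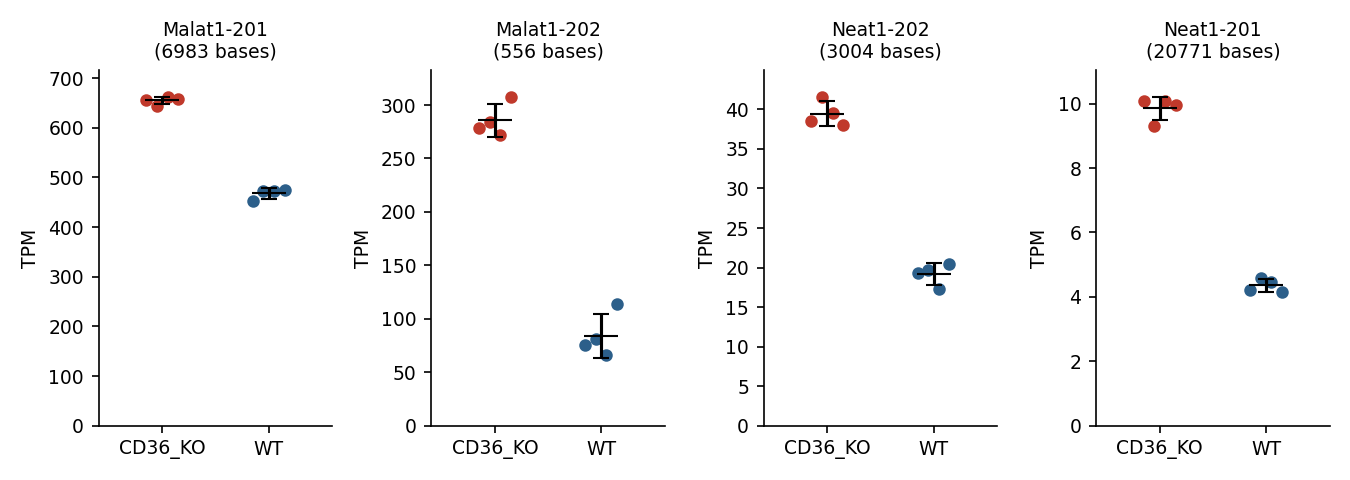
TPM (y axes from 0) of the main transcripts of Malat1 and Neat1 in each lane, CD36_KO left and WT right, with the mean and SD of 4 lanes of 1 library. Malat1-202 lies at 272 to 308 TPM in CD36_KO and 65.9 to 114 TPM in WT, and both Neat1 forms are higher in all CD36_KO lanes.

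In Gas5, the fully spliced Gas5-224 of 502 bases and 12 exons held 39.5% of TPM in CD36_KO and 38.9% in WT. The 20 of 25 Gas5 transcripts annotated as retained introns took 73.0% of its counts in CD36_KO (lanes 65.7% to 80.8%) and 77.4% in WT (71.6% to 82.3%). For Snhg1, 14 of 18 transcripts had that annotation, with 81.7% of counts in CD36_KO (75.4% to 94.0%) and 77.2% in WT (57.7% to 87.8%). These pooled shares overlapped between the lanes of the libraries for both genes. In TPM, which carries no TMM scaling, some single retained-intron forms had lanes that did not overlap. The median log2(TPM + 1) ratio of all measured genes was itself 0.37. Scaled by lane total and TMM factor (1.071 for CD36_KO and 0.934 for WT), the lane counts of Snhg1-215, Gas5-202 and Gas5-205 overlapped. Snhg1-215 of 2728 bases was listed at 44.4, 46.5, 43.3 and 32.3 unscaled counts in CD36_KO lanes, against 13.3, 19.7, 31.7 and 29.2 in WT lanes. Its log2 ratio was 0.59 by TMM, with 25.9% of Snhg1 TPM in CD36_KO against 15.3% in WT. Gas5-202 stood at 2.97 to 6.88 TPM in CD36_KO lanes against 0.871 to 1.88 TPM in WT lanes. Gas5-205 stood at 1.14 to 2.76 TPM against 0 to 0.873 TPM, but its unscaled counts overlapped, at 2.49 to 6.13 against 0 to 2.61. Both Gas5 forms rested on few counts in each lane. Gas5-210, a spliced form, ranged widely, with 10.3% of Gas5 TPM in CD36_KO (1.21% to 19.2%) and 2.39% in WT (up to 5.32%). Without any of the transcripts annotated as retained introns, the log2 ratio was 0.10 for Gas5 and -0.24 for Snhg1. Each was of the opposite sign to that of the whole gene. The spliced Snhg1-211 of 10 exons swung between 2.14 and 10.1 TPM over CD36_KO lanes and between 2.49 and 10.7 TPM over WT lanes.

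The Tug1 and Snhg12 forms could not be separated reliably. Tug1-203 was listed at 87.5, 98.7, 74.1 and 0.19 counts in CD36_KO lanes and at less than 0.001 counts in each WT lane, while the overlapping Tug1-202 was listed at 83.6 counts in the CD36_KO lane where Tug1-203 was near 0. Tug1-201, the longest named form, held 17.6% of Tug1 TPM in CD36_KO and 14.6% in WT. Tug1-207 and Tug1-205 were steadier, at 26.5% and 27.3% of Tug1 TPM in CD36_KO against 34.9% and 30.3% in WT. Of the 5 named Snhg12 forms, Snhg12-206 ranged from 0% to 52.6% of gene TPM over CD36_KO lanes and from 4.28% to 56.0% over WT lanes. Snhg12-210 held 19.2% in CD36_KO and 23.3% in WT, and the named form of 1416 bases held 18.1% and 17.3%.

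The 3 host genes contain 23 annotated snoRNA genes on their own strand, of 60 to 137 bases, 10 in Gas5, 8 in Snhg1 and 5 in Snhg12. Only 5 had any count, and their sum was 9 counts in CD36_KO against 191 in WT. Snord22 had 0.66, 0.68, 1.67 and 3.70 counts in CD36_KO lanes, against 41.6, 38.7, 36.8 and 20.8 in WT lanes. All WT lanes were far above all CD36_KO lanes, and with 7 against 138 counts Snord22 was called lower, by -4.54 on the log2 scale (-5.88 to -3.46). Its host Snhg1 had 277 counts in CD36_KO against 223 in WT. Snora44 in Snhg12 had 2 counts in CD36_KO against 37 in WT, a log2 ratio of -4.45 (-7.55 to -2.49). Snora61 had 0 against 10 counts, at least 3.93-fold lower in CD36_KO when 0 is set to a floor of 3 counts per library. Both were under the 5 CPM needed for a call. In Gas5, Gm22357 had 0 counts in CD36_KO against 5 in WT, and Snord47 had 0 against 1.

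Reads of these snoRNAs could also be given to host forms that retain the intron. Snhg1-215 is among the 3 of 18 Snhg1 transcripts whose exons hold Snord22. Together these 3 held 206 counts in CD36_KO and 144 in WT. The counts of Snord22 and of Snhg1-215 can thus share reads, and the part of such allotment in either was not tested.

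Many snoRNAs of other host genes were also lower, though not all. Among the snoRNAs inside the other listed host genes, 22 in 15 hosts had at least 10 counts, and 14 of these were lower in CD36_KO with an interval that excluded 0, against none higher. The highest of the fitted log2 ratios was 1.76, from 8 counts against 2, with an interval that included 0. Over all 122 annotated snoRNA genes with at least 10 counts, the interval lay below 0 for 49.2% and above 0 for 2.46%, and over all 22302 genes at that depth for 27.2% and 21.5%. Snord15b in Rps3 had 17 counts in CD36_KO against 464 in WT, while Rps3 had a log2 ratio of 0.09. Snora73b in Snhg3 had 368 against 2000 counts. Over all annotated snoRNA genes, the gap between summed counts was larger in the longer classes. Those under 120 bases summed to 338 counts in CD36_KO and 366 in WT. Those of 120 to 140 bases summed to 681 and 1770, and longer ones to 7640 and 45126. Such sums weigh abundant RNAs most, and no trend over single snoRNAs was computed. Snord22, of 126 bases, lay at a log2 ratio of -4.54, while the sum of its class lay at -1.62 and that of the longest class at -2.80. Shorter mean fragments were found in WT, as given above, and the part of fragment length in the snoRNA counts was not tested.

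**Figure D4:**
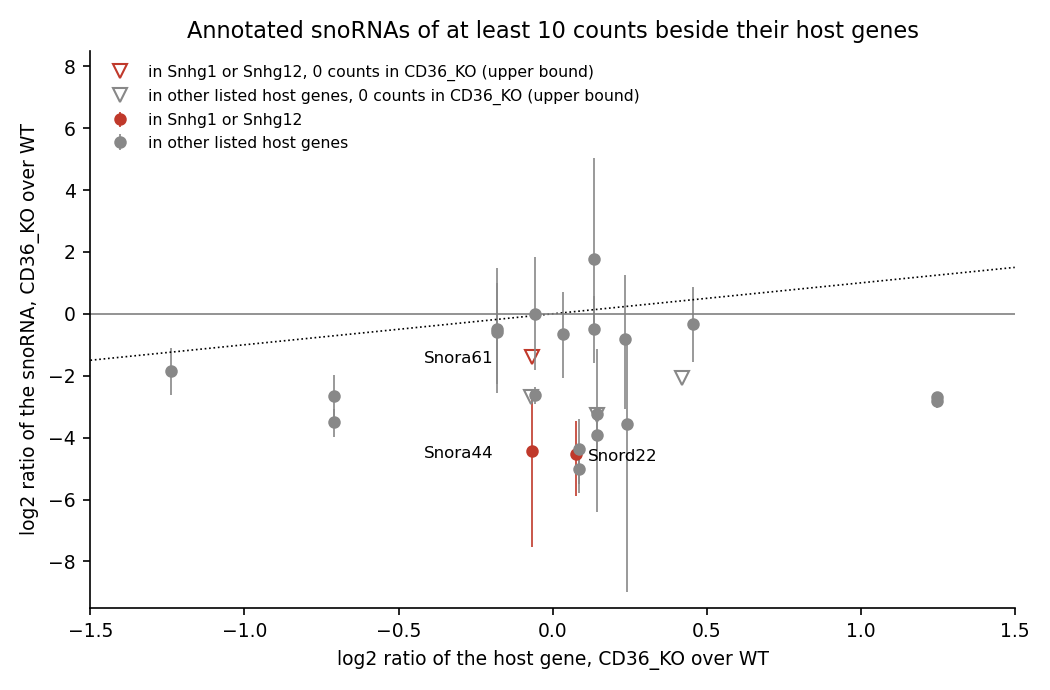
Log2 ratio of CD36_KO over WT of snoRNAs with at least 10 counts (y axis, 95% counting interval) against that of their host gene (x axis), with a dotted line where both are equal; open triangles show the upper bound for snoRNAs with 0 counts in CD36_KO. Snord22 and Snora44 lie at -4.54 and -4.45 while their hosts lie at 0.07 and -0.07.

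Genes around the 6 were described by list. Of the other noncoding snoRNA hosts, 9 were measured and none was called, with a median log2 ratio of -0.06. They ran from Snhg6 at -0.65 (-1.15 to -0.15) to Snhg14 at 0.58 (0.23 to 0.92), and the most abundant, Snhg17, was at -0.07 (-0.34 to 0.20). None of the 27 coding hosts was called, with a median of 0.04. The translation factors in that list included Eef2, the most abundant at 1076 CPM in CD36_KO and 1220 CPM in WT with a log2 ratio of -0.18, and Eif4a1 at -0.71 (-0.79 to -0.63). Of the 15 proteins of box C/D and H/ACA particles, Nhp2, an H/ACA core protein, was called lower at -1.04 (-1.33 to -0.75) with 161 counts in CD36_KO against 280 in WT. The other 14 were not called. Lowest of these were Shq1 at -0.93 (-1.34 to -0.53), Ruvbl1 at -0.82 (-1.14 to -0.51) and Gar1 at -0.72 (-1.24 to -0.20). The most abundant, Nop56, was at -0.02 (-0.20 to 0.16), and the highest log2 ratio of the list was 0.35. The list's median was -0.47 in CPM but 0.25 in log2(TPM + 1), where the median of all genes is 0.37.

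Of the 14 paraspeckle proteins none was called, and their median was -0.13, the same as over all measured genes. Neat1 lay above 13 of them: Hnrnph3, an RNA-binding protein, was at 0.82 (0.48 to 1.17), and Hnrnpk was at -0.53 (-0.61 to -0.45). Of the 13 nuclear speckle proteins none was called either, with a median of 0.07. The splicing kinase Clk1 was at 0.69 (0.58 to 0.81), the speckle scaffold Srrm2 at 0.40 (0.34 to 0.46) and the splicing factor Srsf2 at -0.41 (-0.51 to -0.30). Of 14 measured nonsense-mediated decay factors none was called, with a median of -0.07. The core factor Upf2 was at 0.87 (0.64 to 1.10) and the kinase Smg1 at 0.66 (0.59 to 0.73). Rbm8a, at -0.67 (-0.96 to -0.38), and Eif4a3, at -0.63 (-0.83 to -0.43), went the other way. Among 10 other measured long noncoding RNAs, Mir17hg, the host of the miR-17 cluster, was called higher at 1.01 (0.50 to 1.55) with 107 counts against 45. Xist, the most abundant of that list, was at 0.43 (0.39 to 0.47). Kcnq1ot1, an imprinted RNA, was at 0.53 (0.45 to 0.62), and the nuclear RNA Firre was at -0.83 (-1.09 to -0.57).

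**Figure D5:**
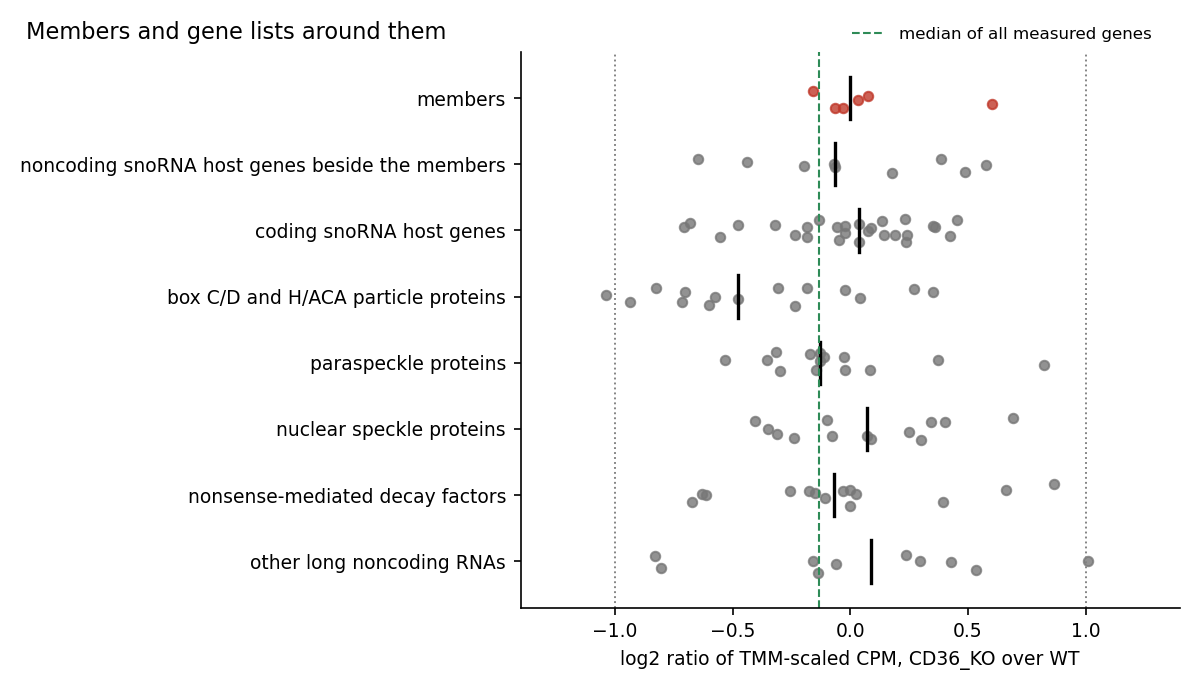
Log2 ratio of TMM-scaled CPM, CD36_KO over WT (x axis), of the 6 genes and of each measured gene of 7 lists, with black bars at medians, dotted lines at 2-fold and a dashed line at the median of all measured genes, -0.13. Nhp2 at -1.04 and Mir17hg at 1.01 are the 2 genes past the dotted lines.

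By Euclidean distance between log2 CPM values in the 2 libraries, the genes nearest to Malat1 were the mitochondrial mt-Cytb and mt-Co3, at distances of 0.50 and 0.58. Nearest to Neat1 were Kmt2d, a histone methyltransferase, with 448 CPM in CD36_KO and 297 CPM in WT, and Btg1, an antiproliferative gene, with 506 CPM and 294 CPM. Gas5 was nearest to the lysosomal phospholipase gene Pla2g15 and to Ubxn4. Snhg1 was nearest to Hexim1, an inhibitor of transcription elongation, and to Smim10l1. Snhg12 was nearest to Hikeshi, a nuclear import factor for Hsp70, and to Rad51d, a recombination gene. Tug1 was nearest to the ribosomal protein gene Rpl28 and to Tmem245. With 2 libraries this measure only says that the genes had like levels in both.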

How the data were processed

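Estimated counts, TPM and effective lengths per transcript were deposited for each lane, made by the authors with kallisto, per the submitters' processing notes, which also name DESeq2 and GRCm38.p6. The kallisto version, index and strand setting were not given in the sources used here. Raw estimated counts, as deposited, were not whole, within a tolerance of 1e-06, for 33.5% to 35.1% of transcripts per lane. TPM, also deposited, is scaled for effective length and lane total. Effective lengths, per the file headers, gave the implied mean fragment length.

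Counts were summed over transcripts of a gene and over 4 lanes and rounded, since lanes share 1 library. TMM factors were 1.071 for CD36_KO and 0.934 for WT (edgeR 4.0.16, R 4.3.3). The floor for a measured gene was a mean of 5 CPM. The 2-fold rule and the exact 95% Clopper-Pearson interval were tested on simulated counts with counting error only. That simulation held no TMM scaling, copies of 1 molecule or fragment-length effects. The interval assumes counting error alone, so the test could not show how it performs under other error. Levels carry the SD over lanes. No p-value is given. Alternatives were total counts, DESeq2 1.42.0 size factors, log2(TPM + 1), centring within 10 classes of effective length, the transcript with the highest TPM, leaving out retained introns or each lane, and floors of 1 count and 20 CPM.

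Named were the 6 genes, their transcripts with at least 10% of gene TPM in a library, for each gene the 2 nearest genes, and from each list other than the markers, up to 4 genes with the largest log2 ratio in size and the most abundant one. Gas5-202, Gas5-205, Postn, Snord15b and Snora73b were chosen after their values were seen. Neighbouring genes and snoRNAs were taken by position from GENCODE M21, in which all 69 transcripts of the 6 genes matched by identifier and length. The genes and lists were chosen with earlier results of these data known.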

Additional observations from a re-analysis of the deposited data

Results flagged for a closer look

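In 48 groups of 4 lanes (6 genes and 18 transcripts in 2 libraries), 7 had 1 lane set apart from the rest, with a gap to its nearest neighbour that passed Dixon's 95% critical value. Chance flags about 1 in 20 such groups, and lanes of 1 library are no biological replicates. Malat1 in WT lane 2 stood at 6914 CPM, against 6984 to 6989 CPM in the other lanes, and Malat1-201 in WT lane 1 at 452 TPM, against 473 to 474 TPM. Neat1-201 in CD36_KO lane 2 stood at 9.30 TPM, against 9.95 to 10.1 TPM. The other 4 were sparse transcripts. Snhg1-211 reached 10.7 TPM in 1 WT lane, where the next highest was 2.82 TPM. Snhg12-206 stood at 0.228 TPM in 1 WT lane, where the next lowest was 3.50 TPM. Snhg12-202 had 2.43 TPM in 1 WT lane and Snhg12-207 had 4.09 TPM in 1 CD36_KO lane, each listed at 0 in the other 3.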

How the results depend on the processing

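Over 80 alternative log2 ratios of the 6 genes, 56 stayed inside the counting interval of the reported value and 24 did not. By total counts the log2 ratios were 0.17 for Malat1, 0.80 for Neat1, 0.041 for Gas5 and 0.23 for Tug1. With DESeq2 size factors Malat1 was at -0.015. In log2(TPM + 1) they were 0.77 (Malat1), 1.12 (Neat1), 0.46 (Gas5), 0.35 (Snhg1), 0.44 (Snhg12) and 0.43 (Tug1), so that 1 of the 6 passed 2-fold. Centred within 10 classes of effective length, Gas5 was at 0.21. On that scale Snhg1 was at 0.31 and Snhg12 at 0.30, both higher than by TMM but inside their counting intervals. Malat1 was at -0.03, Neat1 at 0.60 and Tug1 at 0.08. The transcript with the highest TPM alone gave -0.049 for Malat1, 0.50 for Neat1, -1.07 for Snhg12 and -0.47 for Tug1. Without retained introns Gas5 was at 0.10 and Snhg1 at -0.24. With each lane left out in turn the ranges were -0.027 to 0.030 for Malat1 and 0.60 to 0.68 for Neat1. The causes of these shifts were not tested. The 792 genes called higher became 1501 in log2(TPM + 1), 2381 with a floor of 1 count and 344 at 20 CPM. The 1314 called lower became 329, 2471 and 679, in the same order. No paired analysis was possible because the comparison comes from no test, with 1 library per genotype. By estimated counts in place of TPM, 19 of 36 transcript shares left their lane range. Depth limited Snhg12 most, at 133 counts in CD36_KO and 118 in WT.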
